A study of Mus musculus with 30 samples.

Results

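Levels of 9 genes of the thalamus and striatum were described in the hippocampus of C57 BL/6J mice kept in post-weaning social isolation (SI) or group housed (GH). The genes were *Tcf7l2*, *Prkcd*, *Lhx9*, *Slc17a6*, *Zic1* and *Synpo2*, called thalamic here, and *Ppp1r1b*, *Rgs9* and *Adora2a*, called striatal. They are 9 of the 17477 genes in the deposited count table and were selected on their levels, because genes of this kind stood out in single libraries, so those levels are given as a description without a test. Hippocampal mRNA had been sequenced from 30 adult mice of this strain, 1 library per mouse. There were 8 SI and 7 GH females (animals 41 to 79) and 7 SI and 8 GH males (animals 1 to 39). SI mice lived 1 to a cage from weaning until death, whereas GH mice, the controls, shared cages. Each library is from whole hippocampus, so fewer cells of a type and less RNA per cell cannot be told apart in these values.

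The thalamus lies beneath the hippocampus and relays sensory and motor signals to the cortex through glutamatergic neurons, most of which load transmitter with the vesicular glutamate transporter encoded by *Slc17a6*. *Tcf7l2*, a transcription factor of Wnt signalling, gives postmitotic thalamic neurons their identity, and *Prkcd*, a protein kinase C isoform, is abundant in thalamic relay nuclei. The striatum is made mainly of GABAergic spiny neurons that answer to dopamine through the phosphatase inhibitor encoded by *Ppp1r1b* (DARPP-32) and the G protein regulator encoded by *Rgs9*, and those of the indirect pathway also carry the adenosine receptor encoded by *Adora2a*. None of these genes is exclusive to its region, since *Zic1* is also used in septum and meninges, *Tcf7l2* in the oligodendrocyte lineage and *Ppp1r1b* in some hippocampal neurons.

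The 4 groups had total counts on genes between 18809307 and 100844898 per library. In males they were 18809307 to 58232296 in SI and 33433048 to 66575824 in GH, and SI males 8, 25, 33, 38 and 39 lay below every GH male. Depth was therefore not separate from housing in males, and its part in the male differences was not tested. Markers of the labelled tissue were present throughout, with a summed level of 8 dentate gyrus genes from 268.4 to 494.9 CPM (counts scaled to the TMM-normalized library size) and of 8 CA1 and CA3 genes from 699.7 to 1016 CPM. Summed levels of 4 Y-linked genes were from 1.32 to 2.69 CPM in the 15 females and from 73.5 to 130 CPM in the 15 males, so that sex labels and libraries matched. SI males 25, 33 and 39 stood apart over the transcriptome, with 23.8%, 21.6% and 16.1% of 16391 genes at 1.5 times their median or more, and the comparison of male groups is therefore also given without them. All 9 genes were counted in every library, with the lowest count, 42, for *Adora2a*.

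The promoters of the 3 thalamic genes that varied most across the libraries are shown, since *Tcf7l2* encodes a factor that binds the core motif TCAAAG. The windows run from 250 bases before to 50 after the start of transcription (RefSeq, GRCm38.p6), at chr19:55741560-55741859 on the + strand for *Tcf7l2*, chr14:30626159-30626458 on the - strand for *Prkcd* and chr9:91365719-91366018 on the - strand for *Zic1*. Capitals mark the motif TCAAAG or its reverse complement CTTTGA.
Tcf7l2: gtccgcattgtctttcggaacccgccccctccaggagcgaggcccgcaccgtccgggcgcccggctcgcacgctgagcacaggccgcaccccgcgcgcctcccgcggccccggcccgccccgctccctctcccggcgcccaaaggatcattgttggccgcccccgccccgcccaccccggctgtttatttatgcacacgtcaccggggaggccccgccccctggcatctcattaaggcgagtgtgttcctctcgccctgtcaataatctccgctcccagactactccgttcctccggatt
Prkcd: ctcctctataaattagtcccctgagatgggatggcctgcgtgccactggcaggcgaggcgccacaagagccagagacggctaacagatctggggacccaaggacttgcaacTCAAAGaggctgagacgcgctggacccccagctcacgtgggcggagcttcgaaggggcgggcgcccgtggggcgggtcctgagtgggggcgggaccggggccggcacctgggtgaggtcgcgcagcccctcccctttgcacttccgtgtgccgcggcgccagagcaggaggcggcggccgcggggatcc
Zic1: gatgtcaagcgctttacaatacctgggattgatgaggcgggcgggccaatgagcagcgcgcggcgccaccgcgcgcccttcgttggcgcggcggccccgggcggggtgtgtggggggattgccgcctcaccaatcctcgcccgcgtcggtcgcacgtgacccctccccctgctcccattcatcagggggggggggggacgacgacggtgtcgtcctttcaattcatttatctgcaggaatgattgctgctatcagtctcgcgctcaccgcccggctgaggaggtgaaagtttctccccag
For *Tcf7l2* and *Prkcd* 2 windows each were listed, and the more upstream one is shown. The motif was found once, in the *Prkcd* window shown, and was not in the other *Prkcd* window. Of 10 windows for 7 of the 9 genes 1 held it, against 16% of 32851 windows of the same length, and no window was listed for *Ppp1r1b* or *Adora2a*.

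*Tcf7l2* (ENSMUSG00000024985, NCBIM37 chr19:55816300-56008144, + strand) varied most of the 9 genes. In SI males its level ranged from 5.9 to 38.7 CPM with a median of 10.2 (n = 7), and in GH males from 5.66 to 9.35 CPM with a median of 6.55 (n = 8). Among females it ranged from 7.27 to 27.6 CPM with a median of 11.2 in SI (n = 8) and from 5.63 to 26 CPM with a median of 11.6 in GH (n = 7). The highest library of all was SI male 38, followed by SI female 41 and GH female 46, each of them the highest of its group, while GH males lay close together. The highest level was 4.79 times the median over libraries, which was 8.08 CPM. The SD of log2 CPM over the 30 libraries was 0.771, wider than that of 95.7% of the 16391 genes kept, for which the median SD was 0.271.

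*Zic1* (ENSMUSG00000032368, chr9:91252896-91260648, - strand) encodes a zinc finger factor of the developing dorsal brain. SI females had 14.3 to 54.2 CPM (median 25.1) and GH females 11.3 to 52.8 CPM (median 27.2). SI males had 10.4 to 34.8 CPM (median 20.2) and GH males 9.01 to 28.9 CPM (median 15.5). The highest levels were again in SI female 41 and GH female 46, then in GH female 71 with 42.8 CPM, and all 4 groups overlapped. GH female 71 was also the highest female in the summed choroid plexus genes (5007 CPM) and meningeal genes (1568 CPM), 2 lists with 10 genes each of which 10 and 8 were at 1.5 times their median or more, against 6.61% of all genes in that library. Whether meningeal tissue contributes to its *Zic1* was not tested.

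*Lhx9* (ENSMUSG00000019230, chr1:140721763-140745153, - strand), a LIM homeobox factor of early thalamic neurons, did not share this pattern. Its level was between 7.95 and 14.7 CPM in all 30 libraries, with group medians of 11.8 CPM in SI females, 10.5 in GH females, 11.9 in SI males and 10.7 in GH males. GH female 46 was the highest and SI female 41 had 12.5 CPM, below SI female 63. With an SD of 0.227, *Lhx9* varied less than the median gene, and no library reached 1.5 times its median.

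*Prkcd* (ENSMUSG00000021948, chr14:31408542-31439396, - strand) was highest in SI female 41. SI females ranged from 14.3 to 71.3 CPM (median 24.7) and GH females from 12.7 to 31.2 CPM (median 18.3). In males, SI ranged from 11.5 to 53.4 CPM (median 27.6) with SI male 38 at the top, and GH ranged from 11.9 to 28.5 CPM (median 17.3). Both SI medians were above those of GH, yet the groups overlapped in each sex. GH female 46, with 24.9 CPM, did not stand out for this gene.

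*Slc17a6* (ENSMUSG00000030500, chr7:58877200-58926495, + strand) was at 46.9 CPM in SI male 38, 39.8 CPM in GH female 46 and 37.5 CPM in SI female 41, the 3 highest libraries. The lowest value was 13.1 CPM, in a GH male, and the median 21.4 CPM. Group medians were close to each other, at 22.9, 21.5, 18.3 and 19.5 CPM in SI females, GH females, SI males and GH males.

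*Synpo2* (ENSMUSG00000050315, chr3:122779437-122939067, - strand) encodes an actin-binding relative of synaptopodin. SI females had 6.8 to 21.6 CPM (median 9.62) and GH females 5.87 to 14.7 CPM (median 7.96). SI males had 4.11 to 17.9 CPM (median 7.01), a wider range than the 5.76 to 8.07 CPM (median 6.24) of GH males. The 3 highest libraries were SI female 41, SI male 38 and GH female 46 in that order, and the 3 lowest, below all GH males, were SI males.

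Among striatal genes, *Adora2a* (ENSMUSG00000020178, chr10:74779688-74797533, + strand) was set by a single library. SI female 41 had 9.45 CPM, whereas the other SI females had 2.08 to 2.52 CPM and the GH females 1.83 to 2.59 CPM. SI males had 1.78 to 3.03 CPM and GH males 1.73 to 2.7 CPM. The level in SI female 41 was 4.17 times the median of all libraries and 3.12 times the second highest, while the other 29 libraries lay within 1.73 and 3.03 CPM.

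*Rgs9* (ENSMUSG00000020599, chr11:109086669-109159443, - strand) was also highest in SI female 41, with 14.3 CPM against 8.1 to 11.9 CPM elsewhere and a median of 9.76 CPM. *Ppp1r1b* (ENSMUSG00000061718, chr11:98209718-98219110, + strand) was highest in GH female 71 with 135 CPM, followed by SI female 41 with 126 and SI male 38 with 120 CPM. Its lowest values, 62.5 and 64.8 CPM, were in SI male 7 and GH male 3, and its group medians were 105, 101, 98.7 and 96.3 CPM in SI females, GH females, SI males and GH males. With SDs of 0.172 and 0.256 on the log2 scale, neither varied more than the median gene.

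**Figure D1:**
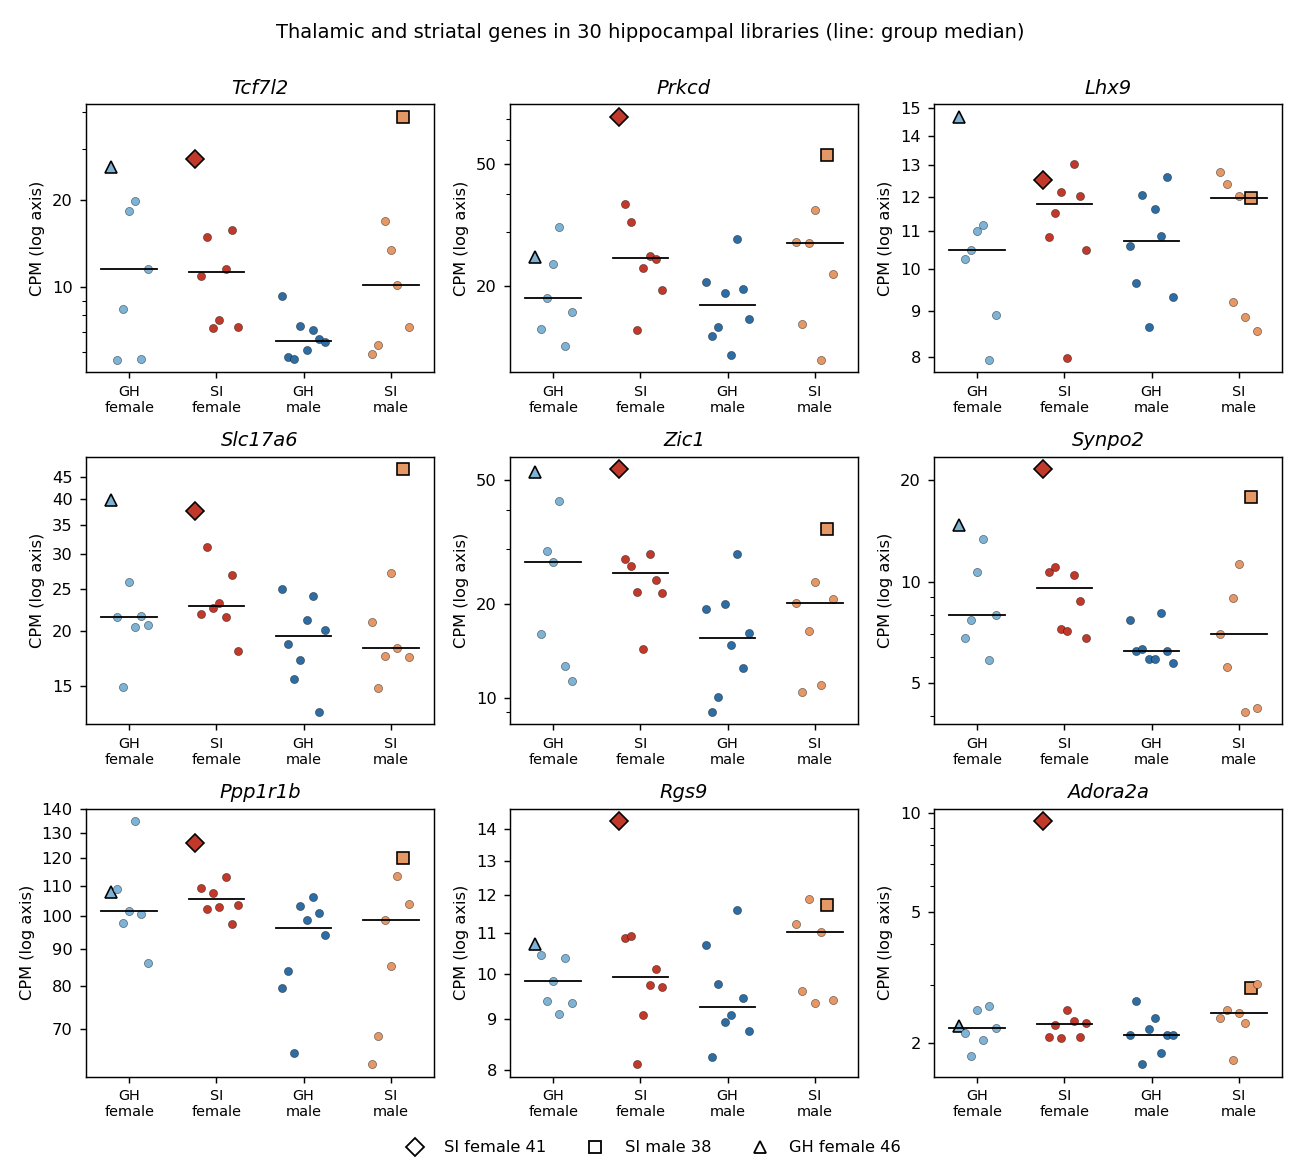
Level of each of the 9 genes in every library, in CPM on a log axis, by group, with a line at the group median and SI female 41, SI male 38 and GH female 46 as larger symbols. The 3 marked libraries lie at the top for *Tcf7l2*, *Slc17a6* and *Synpo2*, and for *Adora2a* SI female 41 alone is high, at 9.45 CPM.

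Per kilobase of exon, *Ppp1r1b* had the highest median level, 34.8 CPM per kb, and its lowest library (21.4 CPM per kb) was above the highest of any other member (14.3 CPM per kb, *Prkcd*). It was followed by *Slc17a6* with 4.95, *Prkcd* with 4.27, *Zic1* with 3.6, *Lhx9* with 1.97, *Rgs9* with 1.53, *Tcf7l2* with 0.925, *Adora2a* with 0.895 and *Synpo2* with 0.796 CPM per kb. From *Slc17a6* down, the ranges of neighbours in this order overlapped over the libraries.

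Most pairs of thalamic genes varied together, those with *Lhx9* less so over all 30 libraries and in males. In females the Pearson r of *Lhx9* with the others was from 0.449 (*Prkcd*) to 0.816 (*Zic1*). Over the 30 libraries the 15 pairs of thalamic genes had a median Pearson r of 0.713 in log2 CPM, from 0.338 (*Lhx9* with *Slc17a6*) to 0.853 (*Tcf7l2* with *Synpo2*). The median was 0.704 in females (from 0.449 to 0.92) and 0.686 in males, where the range went from -0.00142 (*Tcf7l2* with *Lhx9*) to 0.839 and *Lhx9* with *Zic1* had 0.0457. It was 0.582 over 28 libraries without the pair of libraries highest on the thalamic mean, SI female 41 and SI male 38. In contrast, the 3 striatal pairs had a median r of 0.268, which was -0.0347 without these libraries, and thalamic with striatal pairs went from 0.417 to 0.186. In these correlations both genes of a pair share each library's depth and scaling, and the genes were chosen for standing out in some of the libraries. By rank (Spearman rho) the striatal pairs hardly varied together even over all 30 libraries, with a median of 0.0825 (from 0.0158 to 0.254). Their median Pearson r was 0.149 (from -0.258 to 0.189) in males, SI male 38 included. In females, SI female 41 included, it was 0.403 (from 0.294 to 0.776), with a median rho of 0.196. SI female 41 and SI male 38 were highest on both means, so leaving them out by itself tends to lower r. Leaving out SI female 41 alone was not tested. Thalamic pairs kept a positive r, of at least 0.269, without both libraries.

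**Figure D2:**
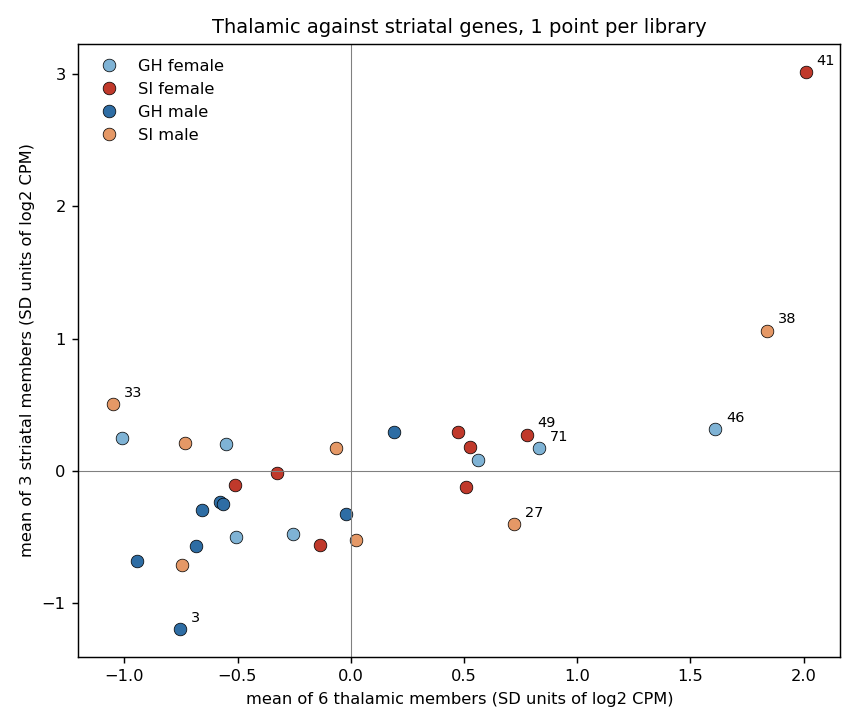
Mean standardized log2 CPM of the 6 thalamic genes (x axis) against that of the 3 striatal genes (y axis), both in SD units, 1 point per library coloured by group. SI female 41 is highest on both axes (2.01 and 3.02) and SI male 38 follows (1.84 and 1.06). GH female 46 is at 1.61 on the thalamic axis (rank 3) and 0.312 on the striatal axis (rank 4).

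Outside the 9 genes, those most like the thalamic mean over 30 libraries were *Vangl1* (r = 0.886), *Slitrk6* (0.878), *Fzd10* (0.857), *Syt9* (0.856) and *Plcb4* (0.845), and without SI female 41 and SI male 38 these were 0.887, 0.824, 0.813, 0.827 and 0.754. *Vangl1* encodes a planar cell polarity protein, *Fzd10* a Wnt receptor and *Syt9* a synaptotagmin, and *Slitrk6* and *Plcb4* are on the list of other thalamic genes used here. Those most like the striatal mean were *Rab37* (0.729), *Ramp3* (0.705), *Six3* (0.704), *Cpne9* (0.699) and *Nexn* (0.694). Without the same libraries their r was 0.431, 0.529, 0.672, 0.409 and 0.541. *Rab37*, *Ramp3*, *Six3* and *Cpne9* were highest in SI female 41, and *Nexn* in SI male 25. *Ramp3*, although like the striatal mean, is on the list of other thalamic genes used here.

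Wider lists of regional markers were then read in the libraries that stood out. In SI female 41, 5 of 6 thalamic members, 10 of 12 other thalamic genes, 10 of 10 habenular genes and 7 of 12 other striatal genes were at 1.5 times their median or more, against 3.33% of all genes. It was the highest of all libraries for 9 of the 10 habenular genes, against 1.93% of all genes. Examples were *Gpr151* (7.35 CPM, 9.83 times the median), an orphan receptor of habenular neurons, and *Pou4f1* (4.07 CPM, 16.5 times), a habenular transcription factor. The medians of these 2 genes were low, 0.748 and 0.247 CPM. Striatal genes high in this library included the dopamine receptors *Drd1* (1.73 times the median) and *Drd2* (2.28 times) and *Penk* (2.67 times), the enkephalin precursor, but not *Pde10a* (1.04 times) or *Adcy5* (1.07 times). *Chat*, the enzyme of acetylcholine synthesis, was 20.2 times its median at 1.94 CPM. The summed level of CA1 and CA3 genes in SI female 41 was the lowest of all 30 libraries, 699.7 CPM. Its summed level of dentate gyrus genes, 329.7 CPM, was not the lowest, which was 268.4 CPM in GH female 78.

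SI male 38 was high for thalamic genes and less so for the others. Here 5 of 6 thalamic members and 9 of 12 other thalamic genes were at 1.5 times their median or more, against 4.53% of all genes, and 6 of 10 habenular and 3 of 12 other striatal genes. It held the highest value of 5 of the 12 other thalamic genes, against 7.29% of all genes. Among the 5 were *Gbx2* (8.86 CPM, 38.1 times the median) and *Shox2* (17.1 CPM, 17.3 times), homeobox genes of thalamic neurons named after their values were seen. Their medians were low, 0.233 and 0.988 CPM, which makes such ratios large. No striatal member reached 1.5 times its median in this library, although all 3 had 1 of their 3 highest values in it. The same held for 15.3% of all genes.

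GH female 46, a control, was also high for thalamic and habenular genes. In it 4 of 6 thalamic members, 6 of 12 other thalamic and 7 of 10 habenular genes were at 1.5 times their median or more, against 3.45% of all genes, with *Gbx2* at 6.42 CPM and *Shox2* at 9.65 CPM. Striatal members were not raised (0 of 3), nor were the other striatal genes apart from 1 of 12. Septal and choroid plexus genes were high in this library as well, with 4 of 7 and 5 of 10 at 1.5 times their median or more, and its summed septal level, 90.68 CPM, was the highest of all 30 libraries, just above GH male 22 with 90.64 CPM. The part of these markers in its *Zic1* was not tested. GH male 1 differed from these 3 libraries, since 7 of 10 habenular genes were at 1.5 times their median or more against 1.46% of all genes, while 0 of 6 thalamic and 0 of 3 striatal members were. The libraries with high thalamic genes therefore came from both housing groups and both sexes, and habenular genes were high with and without thalamic genes.

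Fewer thalamic members were high in the remaining libraries. GH female 71 (6.61% of all genes) and SI male 27 (1.77%) had 3 of 6 thalamic members at 1.5 times their median or more. SI male 25 had 1, in a library in which 23.8% of all genes were that high. SI female 49 had 2, and GH female 54 and SI females 45 and 68 had 1 each. These small counts are not read as shifts of thalamic genes. All other libraries, every GH male among them, had 0 thalamic members that high. SI female 41 was the only one of the 30 in which a striatal member reached 1.5 times its median. SI male 33, at the other end, had 3 of 6 thalamic members at or below their median divided by 1.5, in a library in which 22.7% of all genes were that low.

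**Figure D3:**
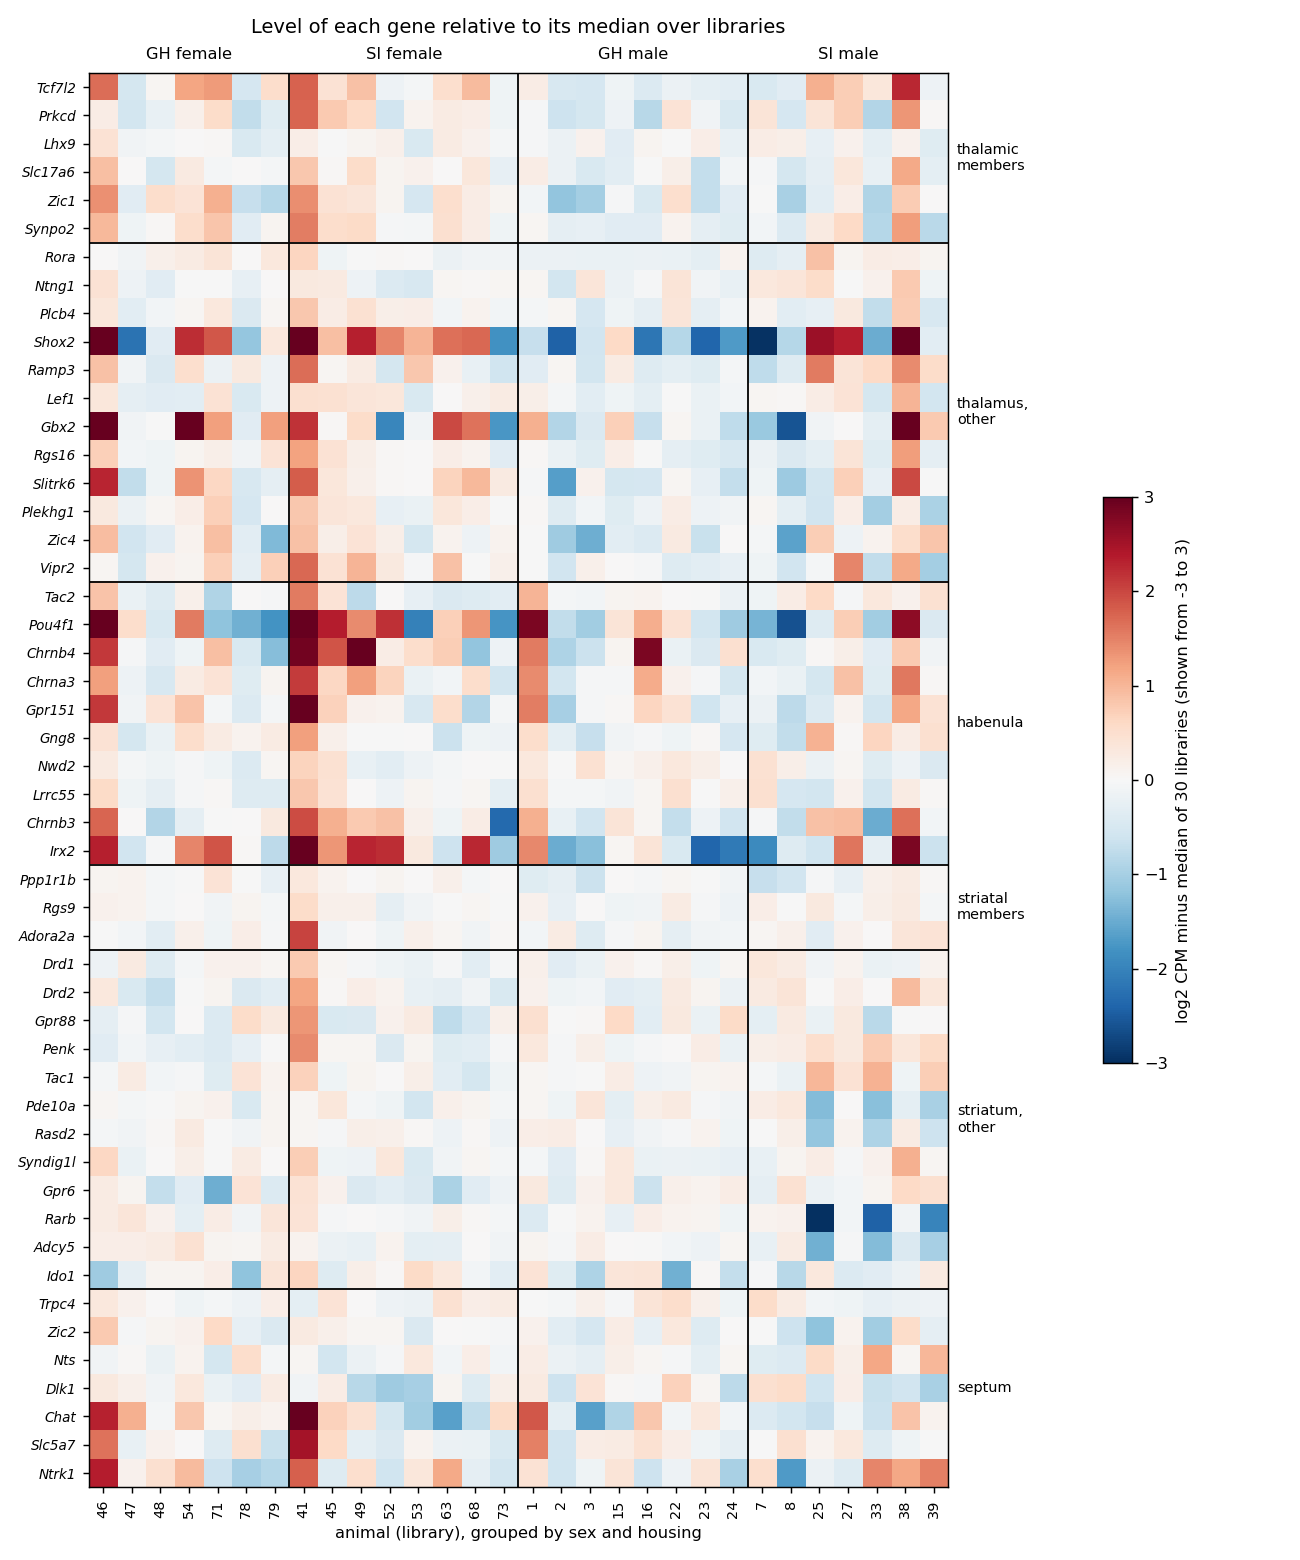
Log2 CPM of each member and of wider regional markers minus the gene's median over 30 libraries (colour, shown up to 3 log2 units either side), with genes in rows by list and libraries in columns by group. Columns 41, 38 and 46 are mostly red through the thalamic and habenular rows, and column 41 is also red in the striatal rows, as for *Adora2a* at 9.45 CPM.

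SI was compared with GH in each sex to ask whether these genes changed with housing. The same libraries enter here as in the levels above, so this comparison is not independent of the way the genes were chosen. The fits were made by edgeR (quasi-likelihood test) with 3 surrogate variables in females and 2 in males, and Log2FC is SI relative to GH in them. In females 624 of 16026 genes (3.89%) were differentially expressed genes (DEGs) at an adjusted p under 0.05, and 0 of the 9 members were. Nor was any of the 9 at an unadjusted p under 0.05, which 20.2% of all genes were.

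Female differences were largest for *Prkcd* (Log2FC 0.49, SE 0.284, edgeR adjusted p = 0.352) and *Adora2a* (0.40, SE 0.299, adjusted p = 0.494). The other thalamic members had Log2FC between -0.11 (*Tcf7l2*) and 0.06 (*Lhx9*), 4 of the 6 were positive (as were 52.8% of all genes), and the median of the 6 was 0.06, beside 0.01 over all genes tested. *Ppp1r1b* (-0.01) and *Rgs9* (0.04) were near 0. Without SI female 41 the difference in *Adora2a* was 0.02 and that in *Prkcd* 0.21, and *Tcf7l2* (-0.37), *Zic1* (-0.29), *Synpo2* (-0.18), *Slc17a6* (-0.02) and *Rgs9* (-0.03) were all lower in SI, again with 0 of 9 members called against 5.16% of all genes. Leaving out SI female 41 and GH female 46 together, which was chosen after the values were seen, gave 0.31 for *Prkcd* and 0.05 for *Adora2a*.

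In males no gene was a DEG. Of 15833 genes tested 0 (0%) had an adjusted p under 0.05, the lowest being 0.295, and 13% had an unadjusted p under 0.05, 5.63% with higher levels in SI. DESeq2, given those surrogate variables, called 44 genes, of which *Zic1* was the only member. All 6 thalamic members had positive Log2FC in the edgeR fit, against 49.3% of all genes, and 5 of them an unadjusted p under 0.05, with a median of 0.60 beside -0.002 over all genes. *Prkcd* differed by 0.87 (SE 0.198, unadjusted p = 0.000392, adjusted p = 0.295 by edgeR) and had the 19th smallest p of all genes, and *Zic1*, with 0.61 (SE 0.151, unadjusted p = 0.000858, adjusted p = 0.295), the 32nd. *Tcf7l2* had the largest difference, 1.06 (SE 0.293, unadjusted p = 0.0022, adjusted p = 0.295 by edgeR). *Synpo2* differed by 0.58, *Slc17a6* by 0.47 and *Lhx9* by 0.15, and of these *Lhx9* alone missed an unadjusted p of 0.05. Without surrogate variables the differences in mean log2 CPM of these 6 were from 0.02 (*Lhx9*) to 0.76 (*Tcf7l2*). That of *Zic1* fell to 0.25 (two-sided exact permutation test, p = 0.414) and that of *Prkcd* to 0.51 (same test, p = 0.109). For *Slc17a6* the SI median was below that of GH, with 3 of 7 SI males above the GH median. Striatal members had Log2FC of 0.25 (*Adora2a*), 0.15 (*Rgs9*) and -0.02 (*Ppp1r1b*), none at an unadjusted p under 0.05.

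The male difference rested largely on SI male 38, whose total count (28047198) was below that of every GH male. Without that library 0 of 6 thalamic members had an unadjusted p under 0.05, although 11.6% of all genes did so with higher levels in SI, and their median Log2FC was 0.12. *Tcf7l2* then differed by 0.36 (SE 0.184), *Prkcd* by 0.41 (SE 0.236), *Synpo2* by 0.14, *Zic1* by 0.08 and *Slc17a6* by 0.04. *Ppp1r1b* had a Log2FC of -0.21 (unadjusted p = 0.0386, adjusted p = 0.167 by edgeR). Other single males also moved the count: without GH male 3 it was 2 of 6, against 7.71% of all genes, and without SI male 27 *Tcf7l2*, *Prkcd* and *Zic1* became DEGs (edgeR adjusted p = 0.0272, 0.0193 and 0.0209) among 2414 DEGs, 15.3% of all genes. Without SI males 25, 33 and 39 together, 3 of 6 had an unadjusted p under 0.05 with higher levels in SI, against 2.91% of all genes, and the median of the 6 was 0.42. *Prkcd* then differed by 0.69 (SE 0.166), *Tcf7l2* by 0.61 (SE 0.193), *Synpo2* by 0.45, *Zic1* by 0.39, *Slc17a6* by 0.30 and *Lhx9* by 0.16. Of the striatal members *Adora2a* differed by 0.24, *Ppp1r1b* by -0.15 and *Rgs9* by 0.00053.

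**Figure D4:**
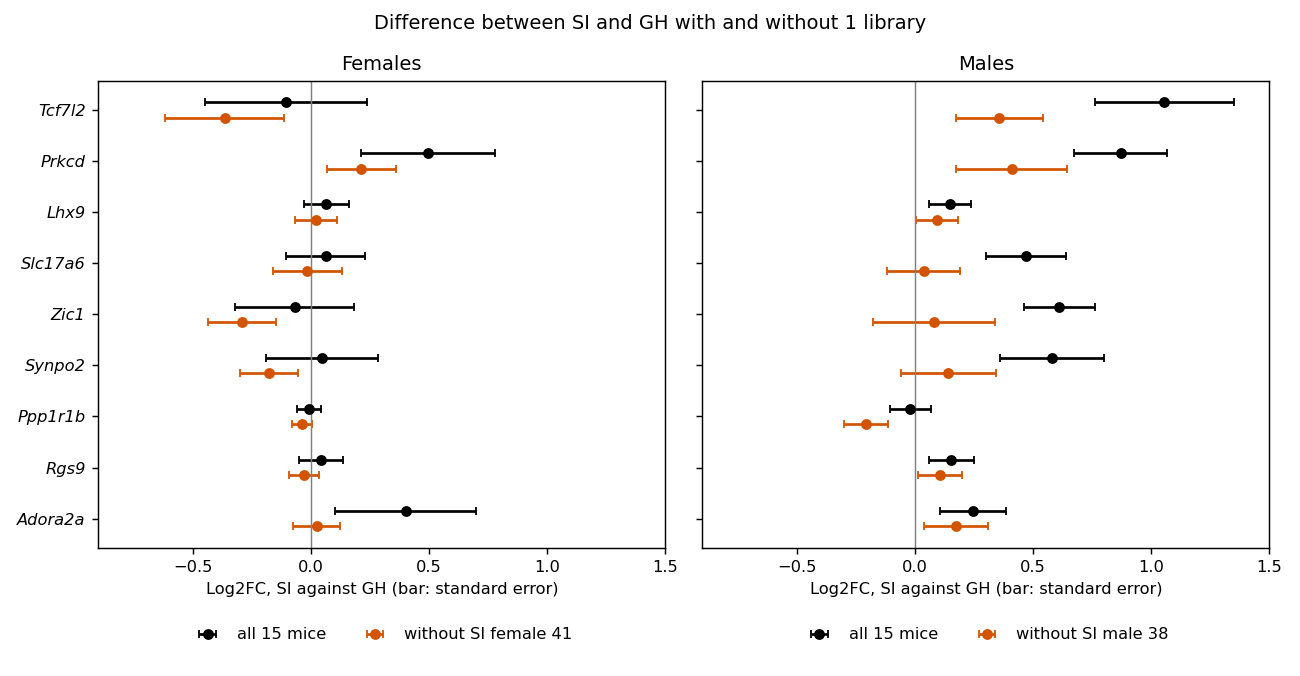
Log2FC of SI against GH (x axis, points, with the standard error as bars) for the 9 genes in females and males, with all 15 mice (black) and without 1 library (orange). In males *Tcf7l2* moves from 1.06 to 0.36 and *Zic1* from 0.61 to 0.08 without SI male 38, and in females *Adora2a* moves from 0.40 to 0.02 without SI female 41.

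In males *Tcf7l2* was the member with the most SI libraries above the GH range, 4 of 7, and none lay below it. *Synpo2* had 3 above and 3 below. SI males 38, 25, 27 and 33 had 38.7, 16.9, 13.5 and 10.2 CPM and lay above every GH male, the highest of which was GH male 1 with 9.35 CPM, while SI males 7, 8 and 39 had 5.9, 6.33 and 7.31 CPM. The difference in mean log2 CPM without surrogate variables was 0.76 (two-sided exact permutation test over 6435 splits, p = 0.0315). For the other 8 members in males the exact permutation p was between 0.0789 and 0.948, and for the 9 in females between 0.122 and 0.999, without adjustment over these 18 tests. Of the 4 high libraries, SI males 25 and 33 are those that stood apart over the transcriptome. They were among the 3 highest libraries for 34.2% and 33.2% of all genes. How many of all genes had as many SI males above the GH range was not counted. For *Tcf7l2* the exact permutation p was 0.08 without both of them, 0.0727 without SI males 25, 33 and 39, and 0.0729 without SI male 38, with differences of 0.67, 0.81 and 0.46. Without SI males 25, 33 and 39 the exact permutation p of *Prkcd* was 0.0364 and that of *Adora2a* 0.0444, and those of the other members lay between 0.0525 and 0.422. Surrogate variables held 23.5% of the variance of *Tcf7l2* and 52.2% of that of *Zic1* in males, beside a median of 65.6% over all genes. The first surrogate variable in males was positive only in SI males 25, 33 and 39, so it was not separate from housing.

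The list of other thalamic genes, markers beside the 6 members, was read in the same fits. In males 11 of 11 tested were higher in SI, against 49.3% of all genes, with a median Log2FC of 0.50. Of these, 9 had an unadjusted p under 0.05, against 5.63% of all genes with higher levels in SI. At an adjusted p under 0.05 there were 0, as over all genes. *Slitrk6*, a synaptic adhesion gene, differed by 1.11 (SE 0.346), while *Rora*, a nuclear receptor with the highest level of the list, had 0.11 (SE 0.101) and *Ntng1*, a netrin relative, 0.40 (SE 0.161). Without SI male 38, 9 of 11 were higher and 1 had an unadjusted p under 0.05. Of all genes 11.6% then had such a p with higher levels in SI, so this count is near that share. Without SI males 25, 33 and 39, 11 of 12 tested were higher, with a median of 0.28. Of the 12, 5 had an unadjusted p under 0.05, against 2.91% of all genes with higher levels in SI. In females 4 of 12 were lower and 8 higher in SI, against 52.8% of all genes higher. There were 0 DEGs (3.89% of all genes) and the median was 0.05.

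Habenular genes were higher in SI for 9 of 10 tested in females (52.8% of all genes) and 5 of 8 in males (49.3%). Their medians were 0.23 and 0.02, with 0 DEGs in either sex (3.89% and 0% of all genes). Their 2 most abundant genes, *Nwd2* and *Lrrc55*, had Log2FC of 0.11 and 0.12 in females. Without SI female 41, 6 of 10 were higher in females, with a median of 0.01, and without SI males 25, 33 and 39, 3 of 10 were higher in males, with a median of -0.11. Of 11 other striatal genes tested in females 1 was a DEG, *Adcy5*, an adenylyl cyclase abundant in striatum, which fell by 0.27 on the log2 scale (edgeR adjusted p = 0.0287). It had 164 to 218 CPM in SI and 209 to 274 CPM in GH females, with SI female 41 at 215 CPM. The call was lost without surrogate variables (edgeR adjusted p = 0.0864), with a position code of the sample titles as a factor (0.123), with all 4 groups in 1 fit (0.0672) and in 7 of 15 fits that left out 1 mouse, namely SI female 45, 49, 63, 68 or 73 or GH female 48 or 54 (0.0636 to 0.0933). In males 0 of 11 were DEGs, and *Adcy5* had a Log2FC of -0.26 (edgeR adjusted p = 0.33).

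Whether housing acted differently in the sexes was tested by an interaction in 1 fit of all 30 mice. Of 16391 genes 0 (0%) passed an adjusted p under 0.05, 7.75% had an unadjusted p under 0.05, and 0 of the 9 members did. The interaction of *Tcf7l2*, the difference in Log2FC of males from females, was 0.95 (SE 0.477, unadjusted p = 0.0558, adjusted p = 0.665 by edgeR), and those of the other members lay between -0.14 (*Adora2a*) and 0.58 (*Zic1*). A difference between the sexes was thus not detectable for any of the 9 genes.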

How the data were processed

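Per the labels and the study's methods, reads were trimmed (Trimmomatic 0.39) and quantified (Salmon 1.8.0) by the authors. The deposited table holds raw counts as whole numbers, 1 column per mouse, for genes with a total of at least 100 counts. GRCm39 is named in the submitters' processing notes, and the annotation release is not given in the sources used here. Symbols were matched for 16439 of 17477 IDs (94.1%), and coordinates are those of the same IDs in NCBIM37 (GENCODE vM1). Salmon divides reads shared by similar transcripts. Replicate pairs differed by more than sampling noise (chi-square per degree of freedom of at least 9.29).

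Counts were analysed in R 4.3.3. Each sex was fitted apart with edgeR 4.0.16 (filterByExpr, minimum count 10 and total 15, TMM, glmQLFTest) and surrogate variables from svaseq of sva 3.50.0, with Benjamini-Hochberg adjustment over all genes and a threshold of 0.05. Log2 CPM used a prior count of 2. Alternatives were DESeq2 1.42.0, limma-voom (limma 3.58.1), a position code of the sample titles as a factor, 0 or 1 surrogate variables, DESeq2's size factors, other filters, all groups in 1 fit, edgeR's robust option (added later) and leaving out mice. The fit was also run on simulated counts with known fold changes. No hidden factor was simulated, so that run does not test how surrogate variables act in these data. Spread between mice, more than depth, limits the precision. Of each wider list, DEGs or else the 2 most abundant genes are named, and others were named after their values were seen. The members, lists and named genes were chosen with earlier results of these data known. Of the 103 list genes 1 is not in the table.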

Additional observations from a re-analysis of the deposited data

Results flagged for a closer look

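Within the groups, 3 of 36 combinations of gene and group had a highest or lowest library whose gap to the others was past Dixon's 95% critical value, while chance alone flags about 1 in 20 groups. The genes had been selected because such genes stood out in single libraries, so this count is a description and supports nothing further. *Adora2a*, the adenosine receptor of striatal neurons, was at 9.45 CPM in SI female 41, with 2.52 CPM in the next SI female. *Synpo2* was at 21.6 CPM in the same library, with 11.1 CPM in the next. *Lhx9* was lowest in SI female 53, with 7.97 CPM, although it stayed close to the lowest value of the GH females, 7.95 CPM. SI female 41 is the library in which habenular and striatal markers were also highest, and the part of these markers in the values was not tested.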

How the results depend on the processing

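Highest libraries were the same with DESeq2's size factors and a prior count of 0.5. In females 0 members were called under any setting run, whereas the count of all DEGs, 624, was 0 without surrogate variables, 0 with the position digit as a factor, 1262 by DESeq2, 1113 without SI female 41 and GH female 46, and 88 to 1427 with each mouse left out. Several small differences in females changed sign. *Ppp1r1b* was 0.0333 without surrogate variables, 0.0323 with 1 of them, 0.0189 with the position digit, 0.048 by limma-voom and 0.041 as a plain difference in mean log2 CPM. *Zic1* was 0.0672 with 1 surrogate variable, 0.00778 with the position digit, 0.20 by limma-voom and 0.12 as a plain difference in mean log2 CPM, and *Tcf7l2* was 0.0156 with the position digit and 0.28 by limma-voom. *Slc17a6* was -0.0108 with at least 10 counts in every library, and *Synpo2* was -0.0333 without SI female 41 and GH female 46. With each mouse left out, the ranges in females were -0.37 to 0.16 for *Tcf7l2*, -0.29 to 0.22 for *Zic1*, -0.0303 to 0.30 for *Slc17a6*, -0.18 to 0.24 for *Synpo2*, -0.0398 to 0.0532 for *Ppp1r1b* and -0.0304 to 0.12 for *Rgs9*.

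In males all DEGs were 44 by DESeq2, 1 without SI males 25, 33 and 39 and 0 to 2414 with each mouse left out. Members called were 1 by DESeq2 (*Zic1*, 0.61, adjusted p = 0.0465) and 0 to 3 with each mouse left out, the 3 being without SI male 27. As a plain difference in mean log2 CPM *Zic1* was 0.25 (two-sided exact permutation test, p = 0.414). *Ppp1r1b* was 0.0314 without surrogate variables, 0.0581 with the position digit, 0.0103 as a plain difference and -0.21 to 0.0732 with each mouse left out. As plain differences in mean log2 CPM without SI male 38, *Lhx9* was -0.00933 and *Synpo2* -0.00862. The interaction of *Lhx9* was -0.0672 without surrogate variables. The cause of these changes was not tested. Fits without a mouse estimated the surrogate variables again. No paired analysis was possible because animal numbers are unique, so that the groups share none.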

Other observations

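Markers of other tissues around the hippocampus were read in the same way. Choroid plexus genes had a summed level from 43.5 to 5007 CPM over the libraries, with GH male 3 and SI male 8 lowest (43.5 and 43.52 CPM). SI female 41, highest for thalamic, habenular and striatal genes, was the lowest SI female for choroid plexus (1589 CPM), and GH male 1, high in habenular genes, had 165.3 CPM. Meningeal genes were between 411.9 and 1711 CPM. In the fits of SI against GH, choroid plexus genes had a median Log2FC of 0.21 in females (10 of 10 higher, 0 DEGs) and -0.12 in males (8 of 10 lower, 0 DEGs), and meningeal genes -0.09 and 0.15, again with 0 DEGs. Over all genes 52.8% were higher in SI females and 49.3% in SI males, and 3.89% and 0% were DEGs.

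Genes of the hippocampus and of the overlying neocortex were also listed. Among 8 dentate gyrus genes 7 were higher in SI females, against 52.8% of all genes, and 1 was a DEG, against 3.89%. This gene, *Lct*, rose by 0.42 on the log2 scale (edgeR adjusted p = 0.0458), with 21.3 to 42 CPM in SI and 16.4 to 28.1 CPM in GH females. This call was lost in 5 of 11 other settings, among them no surrogate variables (edgeR adjusted p = 0.19) and the position digit as a factor (0.235), and in 8 of 15 fits that left out 1 mouse, SI female 45, 49, 53, 63 or 68 or GH female 46, 48 or 54 (adjusted p up to 0.108). Of 8 neocortical genes 7 were lower in SI females and *Tshz2*, a zinc finger gene, fell by 0.33 (edgeR adjusted p = 0.00802), with 94.2 to 157 CPM in SI and 125 to 213 CPM in GH females. It was not called without surrogate variables (edgeR adjusted p = 0.179), with the position digit (0.216) or without SI female 68 (0.0503). CA1 and CA3 genes had a median of 0.01 in females and 0.10 in males, and oligodendrocyte genes -0.09 and 0.04, all with 0 DEGs. Of the septal genes 5 were tested in each sex, with medians of 0.03 and 0.05 and 0 DEGs.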
